A study of Mus musculus with 7 samples.

Results

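The AP-1 transcription factor family was described here through 7 genes, Fos, Fosb, Fosl2, Jun, Junb, Jund and Atf3, of 23413 gene symbols in the count tables. The genes are named members of the family, and they were chosen by their genotype differences in these libraries, in which Fosb differed in the opposite direction to Fos, Jun and Atf3. Differences between genotypes are therefore given for the 7 genes as a description, with a mean, an SD and a standard error, with no p-value and no significance call; counts of genes past a threshold between genotypes are given over all genes. Differences between cell types had no part in the choice and were tested. Those tests took both genotypes together, so a genotype difference within a class entered them. Single cells from the cortex of 7 mouse embryos at E18.5, all of 1 litter, were profiled with Seq-Well, in which cells settle into an array of small wells together with barcoded beads, and a transcript counts through its unique molecular identifier (UMI). The 4 mutant embryos (replicates 10, 11, 12 and 17) were Emx1CreERT2;Ash1lfl/fl and the 3 control embryos (replicates 14, 15 and 16) were Ash1lfl/fl. The dam received tamoxifen at 100 mg/kg on E10.5, so all 7 embryos shared the drug and the floxed alleles, and the controls lacked the Cre. Effects of the Cre and of the loss of Ash1l, which encodes a histone H3 lysine methyltransferase, cannot be told apart in this design. The Cre is driven from Emx1, a gene of the dorsal forebrain progenitors from which cortical glutamatergic neurons and glia arise, whereas cortical interneurons arise mainly outside that lineage. Tissue was digested with papain for 8 min at 37 °C, cells were loaded for 15 min, and the sealed array was held for 45 min at 37 °C.

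AP-1 is a dimer of basic leucine zipper proteins. Fos proteins bind DNA as partners of Jun proteins, Jun proteins can also pair with each other, and Atf3 can pair with Jun. Fos, Fosb, Jun, Junb and Atf3 are early-response genes whose transcription starts within minutes of a growth factor, a calcium signal or cell stress and is shut off soon after. In neurons they are known as markers of recent activity. They are equally known as genes induced when live tissue is dissociated with enzymes at body temperature. Jund and Fosl2 are usually described as more steadily expressed members. Fosb also gives a truncated splice form, deltaFosB, which is known for its stability; the gene counts do not separate it from the full-length form.

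The bases before the start sites of the 3 members around which the genotype values turn are given here, because cAMP, calcium and stress signals are known to reach these genes through elements close to the start site. Each line gives the 250 bases before the RefSeq start on GRCm38.p6, 5′ to 3′ on the gene's strand. Capitals mark TGACG, the core of the cAMP response element, in either orientation (CGTCA on the other strand), and the TATA box TATAAA.
Fos, chr12:85473640-85473889, plus strand: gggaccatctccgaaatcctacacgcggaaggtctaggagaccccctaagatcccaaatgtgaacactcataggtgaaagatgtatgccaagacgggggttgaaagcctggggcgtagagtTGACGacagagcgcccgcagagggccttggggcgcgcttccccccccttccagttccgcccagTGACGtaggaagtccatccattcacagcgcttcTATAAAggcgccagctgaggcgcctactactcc
Fosb, chr7:19310046-19310295, minus strand: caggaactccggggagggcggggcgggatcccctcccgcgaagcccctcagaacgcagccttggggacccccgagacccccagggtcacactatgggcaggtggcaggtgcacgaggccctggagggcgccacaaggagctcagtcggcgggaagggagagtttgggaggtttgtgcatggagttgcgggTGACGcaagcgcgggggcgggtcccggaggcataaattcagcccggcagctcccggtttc
Atf3, chr1:191183334-191183583, minus strand: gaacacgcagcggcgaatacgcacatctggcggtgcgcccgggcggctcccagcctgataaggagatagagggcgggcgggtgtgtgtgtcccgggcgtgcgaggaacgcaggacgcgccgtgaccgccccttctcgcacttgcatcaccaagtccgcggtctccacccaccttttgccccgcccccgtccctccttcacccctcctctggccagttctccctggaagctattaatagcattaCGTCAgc
The Fos window held TGACG at positions −129 and −66 and TATAAA at −33, counted to the first base of the match from the start site. The Fosb window held TGACG at −60, and the Atf3 window held its reverse complement at −7. Of the other members, Junb held TGACG at −106, while Fosl2, Jun and Jund held none of the motifs in these windows. TGACG occurred in 17.8% and TATAAA in 12.4% of 32851 RefSeq promoter windows of the same length. The complete palindrome TGACGTCA (1.55% of windows), the AP-1 site TGANTCA (6.75%) and the CArG box bound by serum response factor (1.47%), searched on both strands, were in 0 of the 7. These are matches of letters in a window and not measured binding sites. Elements more than 250 bases before the start, and variants of these patterns inside the windows, were not searched. The lack of a match therefore does not mean that a gene lacks such an element. The RefSeq starts of Atf3, Fosl2 and, by a few bases, Fosb lie inside the gene as annotated by GENCODE on mm10 (Atf3 on chromosome 1, 191170296 to 191218039). The Jund window ends at base 70697738, well before its GENCODE start at 70698949. On the minus strand, the Junb window reaches base 84978749, short of its GENCODE start at 84978718. For these genes the windows are therefore not the bases just before the GENCODE start. Fos (chromosome 12, 85473890 to 85477273), Fosb (chromosome 7, 19302696 to 19310051) and Fosl2 (chromosome 5, 32135801 to 32157842) overlap no other annotated gene. Jun (chromosome 4, 95049034 to 95052222), Junb (chromosome 8, 84974484 to 84978718), Jund (chromosome 8, 70698949 to 70700616) and Atf3 each overlap 1 gene on the opposite strand, and Prdx2, beside Junb, and Gm11175, beside Jund, have rows of their own. Whether reads were counted by strand is not stated, so the split between these pairs is uncertain.

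The 7 libraries held 7083225 to 11859209 UMIs. Of 50191 barcodes, 23005 passed the limits of 500 genes and 10% mitochondrial UMIs, from 2114 to 4285 per embryo, with a median of 1241.5 to 2133 UMIs per cell. The median mitochondrial share was 3.50% to 4.37% in mutants and 4.14% to 5.69% in controls. Pairs of libraries shared 2 to 6 kept barcodes. Cells were placed in classes by marker lists that hold no AP-1 gene, and 11606 cells (50.4%) met a class. These were 6273 glutamatergic neurons (3117 of them upper-layer and 1532 deep-layer), 2867 radial glia, 1720 interneurons, 247 Cajal-Retzius cells and 194 intermediate progenitors, with 41 striatal neurons, 65 oligodendrocyte precursors, 54 endothelial cells, 72 pericytes, 65 microglia or macrophages and 8 meningeal fibroblasts. Levels are given in CPM, a gene's share of the summed UMIs of a set of cells on a common scale. In mutants 10, 11, 12 and 17 Ash1l stood at 156, 157, 170 and 121 CPM, and controls 14, 15 and 16 had 162, 217 and 206 CPM, with overlap (log2 fold change −0.39, SE 0.12, edgeR adjusted p = 0.336). Which exon is floxed is not stated, so these counts do not check recombination.

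Radial glia, the neural stem cells of the cortex, had higher Fos, Fosb, Jun, Jund and Atf3 than the mean of the other 4 classes, although for Jund they were the highest class in 0 of 7 embryos. Fosl2 and Junb were higher in glutamatergic neurons. The 5 classes with at least 15 cells in every embryo could be tested. Each class was set against the equally weighted mean of the other 4, in edgeR's quasi-likelihood fit with the embryo as a block and Benjamini-Hochberg adjustment over 9697 genes. In radial glia 5 of the 7 members were higher and 0 lower, and among all genes 29% were higher and 19.8% lower. Glutamatergic neurons were higher in 2 members and lower in 1 (26.1% and 17.8% of all genes), interneurons higher in 3 (21.7%), Cajal-Retzius cells higher in 1 and lower in 3 (17.4% and 17.5%), and intermediate progenitors higher in 2 and lower in 3 (7.46% and 11.3%). With such large shares of genes called, the counts alone do not set the family apart. Fewer cells that transcribe a gene and less RNA of it per cell cannot be told apart in these sums.

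Fos, the founding partner of Jun in AP-1, ranged in radial glia from 416 CPM in mutant 17 to 1046 CPM in mutant 11, with a median of 722 CPM. In glutamatergic neurons it ranged from 260 CPM, again in mutant 17, to 653 CPM, with a median of 452 CPM. Radial glia were the highest of the 5 classes in 5 of 7 embryos and intermediate progenitors the lowest in 5 of 7. The difference of radial glia from the other classes was 0.73 on the log2 scale (SE 0.09, edgeR adjusted p = 4.35e-11) and that of intermediate progenitors −0.95 (SE 0.17, adjusted p = 8.04e-06). Cajal-Retzius cells, the early-born neurons of the marginal zone, spread from 271 to 1290 CPM; their difference of 0.44 (SE 0.12, adjusted p = 0.00344) lost its call without control 16 and under a stricter marker gate, with 0.22 in each. Glutamatergic neurons and interneurons did not pass, with −0.09 and −0.12 (approximate 95% intervals −0.27 to 0.09 and −0.32 to 0.08). Under the stricter gate both were called lower, glutamatergic neurons with −0.42, and interneurons were also called without control 14 (−0.33 to −0.26 over these 2 settings).

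Fosb, a second Fos protein that takes the same place in the dimer, had the same top class. It ranged from 55.7 CPM in control 14 to 364 CPM in mutant 11 in radial glia, which were the highest class in 6 of 7 embryos and the lowest in the other, control 14. The difference of radial glia was 0.69 (SE 0.10, adjusted p = 4.68e-09). Interneurons were at 121 to 316 CPM and passed with 0.38 (SE 0.11, adjusted p = 0.00494), and intermediate progenitors were at 40.1 to 212 CPM and passed with −0.74 (SE 0.23, adjusted p = 0.0129). Both calls were lost under several alternatives, among them a mitochondrial share of at most 5% and a fit without the embryo block.

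Fosl2, which encodes Fra-2, did not follow Fos and Fosb. It was the member with the narrowest spread over embryos in glutamatergic neurons, from 35.1 to 43.5 CPM with a median of 38.2 CPM. Radial glia had 9.06 to 23.2 CPM, so the 7 embryos of the 2 classes did not overlap. Glutamatergic neurons were higher than the other classes by 1.35 (SE 0.22, adjusted p = 1.94e-07). In intermediate progenitors only 3 UMIs of Fosl2 were counted in all embryos together, and the call there (−2.16, SE 0.74, adjusted p = 0.0296) was lost under 6 of its alternatives.

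Jun, the central partner of the family, was highest in radial glia in 4 of 7 embryos and in intermediate progenitors in the other 3. Radial glia spread from 1037 CPM in mutant 17 to 1765 CPM in control 15 (difference 0.86, SE 0.08, adjusted p = 1.43e-15). Cajal-Retzius cells, at 175 to 752 CPM, were the lowest class in 6 of 7 embryos (−1.21, SE 0.13, adjusted p = 2.39e-13). For intermediate progenitors the main value was 0.32 (SE 0.12, adjusted p = 0.0413), a call lost under 6 alternatives, and at a mitochondrial share of at most 5% the value turned to −0.28.

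Junb and Jund, Jun proteins known as weaker activators than Jun, had other leading classes. Junb was highest in glutamatergic neurons in 5 of 7 embryos, at 54.2 to 101 CPM with a median of 84.7 CPM, against 34.6 to 57.7 CPM in radial glia; the 2 ranges overlapped. The difference of glutamatergic neurons was 0.99 (SE 0.13, adjusted p = 1.15e-09) and that of interneurons 0.57 (SE 0.17, adjusted p = 0.00607), the latter not called without control 14 or at a mitochondrial share of at most 5% (0.19 to 0.36). Jund was lowest in Cajal-Retzius cells in all 7 embryos, at 101 to 290 CPM (−1.09, SE 0.12, adjusted p = 4.37e-12). It was highest in interneurons in 3 embryos and in intermediate progenitors in 4, with differences of 0.50 (SE 0.07, adjusted p = 1.06e-08) and 0.48 (SE 0.12, adjusted p = 0.00135), the second not called at a mitochondrial share of at most 5% or without the block. In radial glia Jund differed by 0.24 (SE 0.07, adjusted p = 0.00277), a call lost when barcodes with 300 genes were let in and without the block.

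Atf3, a stress-induced factor that can repress its targets, had the greatest difference of the 7 members in radial glia. Radial glia held 32.4, 77.8 and 127 CPM in controls 14, 15 and 16 and 82.8, 92.2, 80.6 and 44.2 CPM in mutants 10, 11, 12 and 17, the highest of the 5 classes in each of the 7 embryos. The difference was 1.87 (SE 0.20, adjusted p = 5.33e-13). Glutamatergic neurons held 3.82 to 31.2 CPM and were lower than the other classes by a log2 value of −1.16 (SE 0.27, adjusted p = 0.00021). The class fit has no term for genotype by class. The low Atf3 of mutant glutamatergic neurons (3.82 to 7.05 CPM, against 16.8 to 31.2 CPM in controls) therefore enters both values. In controls alone the mean was 24.0 CPM in glutamatergic neurons and 78.9 CPM in radial glia, without a separate test. Radial glia had higher Atf3 than glutamatergic neurons in every embryo, controls included. Microglia or macrophages, with 6 to 12 cells per embryo and no test, stood far above both: Atf3 was at 971 to 3376 CPM per embryo and at 2053 CPM pooled (95% Poisson interval 1839 to 2285, counting error only). Pooled Atf3 was 504 CPM in endothelial cells, 330 CPM in pericytes and 15.7 CPM in glutamatergic neurons. Summed microglia markers were at 7.20 to 19.7 CPM in radial glia and 3.34 to 8.45 CPM in glutamatergic neurons, with 4 and 5 of the 13 markers at 0. In radial glia they were lower in all mutants (at most 15.9 CPM) than in all controls (at least 16.4 CPM). Their part in the Atf3 levels was not tested.

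**Figure D1:**
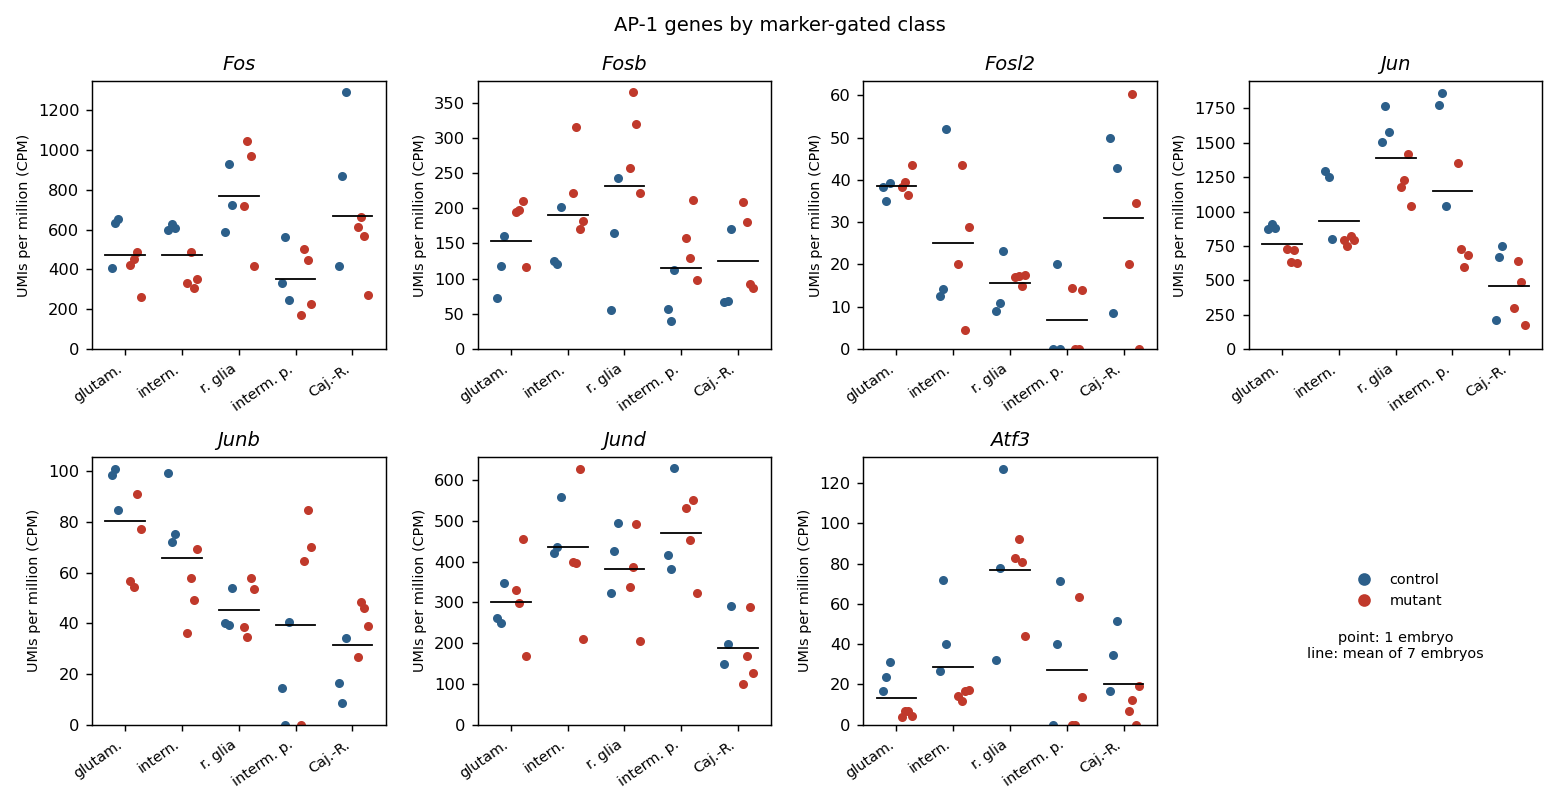
Level of each AP-1 gene in 5 cell classes in CPM of the class; each point is 1 embryo, blue for the 3 controls and red for the 4 mutants, and lines mark the mean of 7. Radial glia are highest for Atf3 in all 7 embryos, from 32.4 to 127 CPM, and Fosl2 in glutamatergic neurons stays between 35.1 and 43.5 CPM.

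Free RNA can put UMIs of a gene into any barcode. Barcodes with fewer than 200 genes may hold free RNA or small or damaged cells, which were not told apart. In 1556 such barcodes the members stood at 435 (Fos), 130 (Fosb), 17.8 (Fosl2), 838 (Jun), 48.4 (Junb), 270 (Jund) and 43.3 CPM (Atf3, 17 UMIs, interval 25.2 to 69.3). Fos, Fosb and Jun in glutamatergic neurons, at 486, 143 and 790 CPM pooled, were within the intervals of those values (373 to 506, 96.7 to 171 and 750 to 933), and Atf3 at 15.7 CPM was below its interval. Radial glia were above the intervals for Fos (773 CPM), Fosb (232 CPM), Jun (1404 CPM) and Atf3 (78.4 CPM). After each cell was thinned to 500 UMIs, the share of cells with a UMI was 24.8% ± 5.72 in radial glia and 18.6% ± 4.43 in glutamatergic neurons for Fos (SD, n = 7), and 50.3% and 48.4% without thinning. For Atf3 it was 3.36% ± 1.34 and 0.63% ± 0.53 at 500 UMIs, and for Jun 42.6% ± 4.21 and 28.3% ± 2.54. No AP-1 share of cells is read as a share of expressing cells.

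Within the glutamatergic class Fosl2 differed most between layers. Deep-layer neurons, which project out of the cortex, had 66.0 to 89.0 CPM of Fosl2 and upper-layer neurons, which connect within it, 15.0 to 23.6 CPM, with no overlap. The difference, upper minus deep, was −2.01 on the log2 scale (SE 0.14, edgeR adjusted p = 1.92e-19 over 8791 genes, embryo as a block). Jun (0.28, SE 0.06, adjusted p = 0.000282) and Jund (0.34, SE 0.06, adjusted p = 1.37e-05) were higher in upper layers. Of all genes 10.8% were higher and 12.4% lower, beside 2 and 1 of the 7 members. The Jun call was lost in DESeq2 and both it and the Jund call without the block, while Fosl2 kept its call under all 14 alternatives. Fos, Fosb, Junb and Atf3 did not pass between layers, with values of −0.11, −0.16, −0.17 and −0.38 (SE 0.06, 0.08, 0.13 and 0.25), though Fos was called without control 16 (−0.18). Among other early-response transcription genes, Nr4a3 (−1.13, SE 0.09, adjusted p = 1.29e-16), Npas4, a factor specific to neuronal activity (−0.59, SE 0.10), and Nr4a2 (−0.59, SE 0.11) were lower in upper layers and Klf6, Klf10 and Maff higher, 3 of 11 in each direction. Inhba, an activity gene that encodes an activin subunit, was higher by 3.18 (SE 0.28, adjusted p = 1.95e-15).

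The neighbouring genes of the early response shared the class pattern of the members only in part. The lists share genes, so their counts are not separate results. Dusp1, Ier2 and Btg2, among others, are in both the feedback and the dissociation list. Egr1 and Nr4a1, among others, are in both the early-response transcription and the dissociation list. Of 26 dissociation-associated genes tested, a list without AP-1 members, 17 were higher and 1 lower in radial glia, with a median log2 difference of 0.49 against 0.06 for all genes, of which 29% were higher and 19.8% lower. Among them were the heat shock genes Hspa1a (2.51, SE 0.12, adjusted p = 1.66e-31) and Hspa1b (2.46, SE 0.14) and Cyr61 (4.26, SE 0.12). Of 13 feedback genes, which shut the response off, 9 were higher and 1 lower, including the RNA-decay factor Zfp36l1 (4.74, SE 0.17, adjusted p = 3.16e-40); the phosphatase gene Dusp4 was the lower one (−1.15, SE 0.11). Other early-response transcription genes went both ways: Egr1 was higher in radial glia (0.87, SE 0.11, adjusted p = 2.46e-11), while Npas4 was lower there (−1.29, SE 0.22) and higher in glutamatergic neurons (1.05, SE 0.14), as were Nr4a1 (1.15, SE 0.14), Nr4a2 (1.65, SE 0.15) and Nr4a3 (1.41, SE 0.13). In glutamatergic neurons 5 dissociation-associated genes were higher and 10 lower, with a median of −0.13 against 0.04 for all genes, of which 26.1% were higher and 17.8% lower. Among 17 other basic leucine zipper genes 5 were higher and 5 lower in radial glia, close to the shares of all genes, with Nfe2l2, the oxidative stress factor, highest (2.98, SE 0.27, adjusted p = 1.45e-16). Of 25 genes upstream of AP-1, kinases and their nuclear targets, 4 were higher and 7 lower in radial glia.

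Within single cells several pairs of members appeared together more often than their separate shares predict. Each cell was thinned to 500 UMIs and the observed share of cells with both genes was divided by the product of the single shares within the embryo. In all kept cells the ratio was above 1 in 7 of 7 embryos for 11 of the 21 pairs. For Fos and Fosb the median was 1.39 (1.34 to 1.55), for Fos and Jun 1.21 (1.15 to 1.28), for Fos and Atf3 1.56 (1.24 to 1.80) and for Fosb and Atf3 1.95 (1.73 to 3.13). Jund, described as more steadily expressed, was among these pairs with Fos (1.09, range 1.03 to 1.22), Jun (1.18, range 1.08 to 1.27) and Atf3 (1.35, range 1.14 to 1.90). The pair of Fosl2 and Jund was below 1 in all 7 embryos, with a median of 0.865. Junb and Jund were at 0.964, above 1 in 2 embryos. Such ratios over all cells also reflect the mixing of classes, so they were taken within classes too. In glutamatergic neurons Fos and Fosb had 1.40 (1.11 to 1.97) and Fos and Jun 1.28 (1.14 to 1.43), and in radial glia 1.40 (1.27 to 2.00) and 1.17 (1.10 to 1.28), each above 1 in all 7 embryos. In interneurons Fos and Fosb had 1.42 (1.04 to 1.59), above 1 in all 7 embryos, and Fos and Jun 1.04, above 1 in 5. There Fos and Atf3 were at 0.892, above 1 in 3 embryos, and Fosb and Atf3 at 0.941, above 1 in 1. Those Atf3 values rest on 120 Atf3 UMIs. Both Atf3 pairs were above 1 in all 7 embryos in radial glia, and in 7 and 6 in glutamatergic neurons. The Atf3 ratios over all cells were therefore not found in every class. Shared depth is removed by the thinning, while free RNA and doublets are not.

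**Figure D2:**
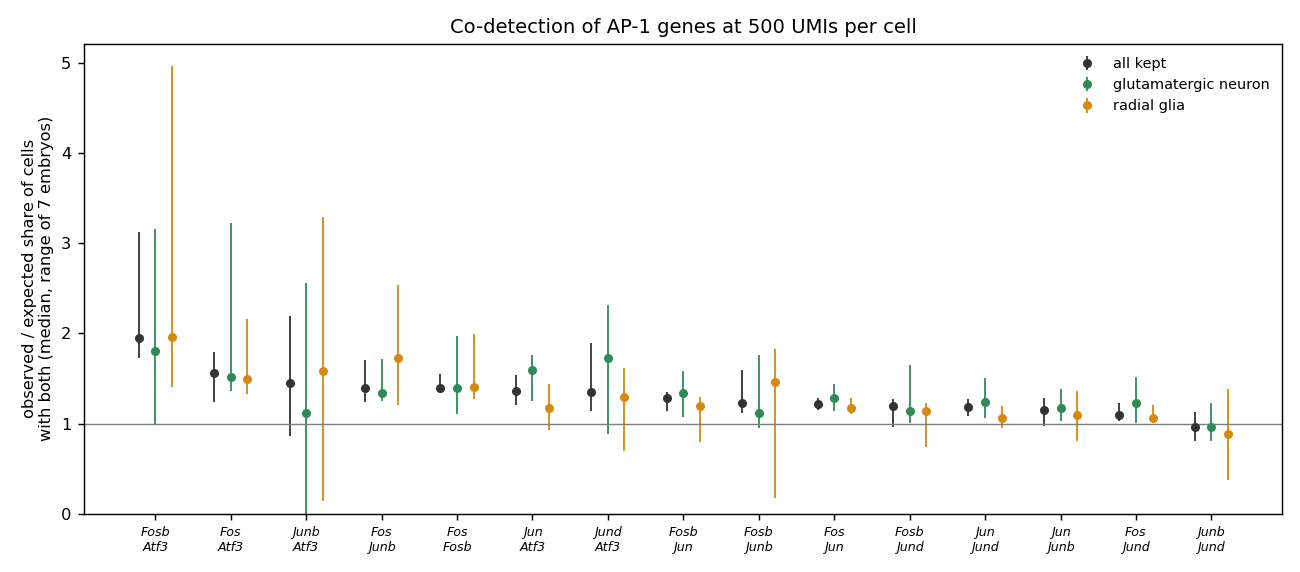
Observed over expected share of cells with UMIs of both genes at 500 UMIs per cell, for the 15 pairs without Fosl2; points are medians and bars the range over 7 embryos, and the grey line at 1 marks independence. Fos and Fosb lie above 1 in every embryo in the 3 sets of cells shown, while Junb and Jund lie around 1.

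The same ratio was taken for Fos with each of the 30 dissociation-associated genes in glutamatergic neurons. The highest median was that of the heat shock gene Hspb1 (2.67, range 1.09 to 3.28 over the 4 embryos that held a UMI of it), which was found in 0.027% of these cells. Among genes found in at least 1% of cells the ratio with Egr1 was 1.78 (1.45 to 1.86), with Btg2 1.67 (1.40 to 1.92), with Dusp1 1.42 (1.18 to 1.48), with Ier2 1.32 (1.05 to 1.45) and with Nr4a1 1.27 (1.23 to 1.52). Among heat shock genes it was 1.27 with Hspa1b, found in 0.988% of cells and above 1 in all 7 embryos, 1.09 with Hsp90aa1 (0.988 to 1.19), 1.06 with Hspa8 (1.00 to 1.09) and 1.01 with Dnajb1 (0.802 to 1.37). Of 21 dissociation-associated genes found in at least 1% of these cells, the ratio was above 1 in all 7 embryos for 7 with Fos, 9 with Fosb, 10 with Jun and 5 with Jund. Control and mutant embryos had Fos and Fosb ratios of 1.63 ± 0.293 (SD, n = 3) and 1.31 ± 0.135 (SD, n = 4) in glutamatergic neurons, without a test.

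Across embryos the members did not move as a block. Over 35 sums of 7 embryos and 5 classes, with log2(CPM + 10) centred within each class, Fos had a Pearson correlation of 0.518 with Jun, 0.437 with Atf3, 0.415 with Jund and 0.115 with Fosb, and Fosb had −0.271 with Jun. These sums share libraries and depth, and the values are given as a description with no p. The 5 genes most like Fos of 7064 compared were Zdbf2 (0.716), Lats1, Sh3bgrl, Pfdn4 and Marcks. For Fosb they were Arrdc3 (0.731), Alkbh1, Zfp451, Amotl2 and Chd8, and for Atf3 Bbip1 (0.722), Adal, Rnh1, Ikbkap and Lamtor3. For Jun they were Arid4b (0.720), the feedback phosphatase Dusp1 (0.704), Tceanc2, the chaperone gene Hsp90aa1 (0.685) and Lrch2. The summed level of the 7 members was 1527 CPM in mutant 17, against 1939 to 2563 CPM in the other 6 embryos, and mutant 17 was the lowest embryo for Jund in 4 of the 5 classes and for Fos and Jun in 3. Genotype values of Fos and Fosb are given with and without that library below.

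Between genotypes, Fos, Jun, Junb and Atf3 had lower means and Fosb a higher mean in mutants over all kept cells. Fos was at 465, 558, 555 and 307 CPM in mutants 10, 11, 12 and 17, against 482, 718 and 652 CPM in controls 14, 15 and 16. The groups overlapped, since control 14 lay below mutants 11 and 12. The means were 471 ± 118 CPM (SD, n = 4) and 617 ± 122 CPM (SD, n = 3), a log2 fold change of −0.41 (SE 0.17), and −0.27 (SE 0.14) without mutant 17. Jun was at 817, 815, 884 and 743 CPM in mutants, against control levels of 1089, 1203 and 1007 CPM, with all mutants below all controls (log2 fold change −0.45, SE 0.11). Junb was likewise without overlap, at 49.8, 53.8, 70.2 and 70.8 CPM against 92.8, 80.1 and 77.4 CPM (−0.46, SE 0.14). Of all 12893 genes, 4.63% had all mutants below all controls. Atf3 overlapped, at 28.3, 47.2, 33.9 and 23.9 CPM against 30.6, 53.2 and 59.5 CPM (−0.55, SE 0.22), and was −0.36 without control 16. Sums over all kept cells mix classes. Of 1974 Atf3 UMIs, 335 came from 65 microglia or macrophages, 62 from 54 endothelial cells and 55 from 72 pericytes. Endothelial cells ranged from 1 in control 14 to 24 in control 16. The part of cell composition in the all-cell values was not tested. At an adjusted p under the 0.05 threshold 0.0233% of all genes (3 genes) were called. Since the genotype values chose the family, nothing is read from its counts.

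Fosb stood at 208, 250, 222 and 153 CPM in mutants 10, 11, 12 and 17, against 83.6, 135 and 178 CPM in controls 14, 15 and 16. It was above every control in 3 mutants, and mutant 17 lay between controls 15 and 16. The log2 fold change was 0.64 (SE 0.20), 0.74 (SE 0.19) without mutant 17, 0.40 (SE 0.17) without control 14 and 0.91 (SE 0.19) without control 16. Fosl2 (31.4 ± 6.46 against 32.3 ± 4.62 CPM) and Jund (346 ± 127 against 370 ± 68.1 CPM) had log2 fold changes of −0.06 (SE 0.17) and −0.12 (SE 0.21). The sign of Jund turned without mutant 17 (0.06) and without control 16 (0.03).

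In glutamatergic neurons the pattern was the same for Jun and Fosb and more marked for Atf3. Atf3 stood at 3.82, 7.05, 6.91 and 4.23 CPM in mutants 10, 11, 12 and 17, from 8 to 13 UMIs each, and at 16.8, 23.9 and 31.2 CPM in controls 14, 15 and 16, from 58 to 112 UMIs each. All mutants lay below all controls, with means of 5.50 ± 1.72 and 24.0 ± 7.20 CPM and a log2 fold change of −2.15 (SE 0.28). With 1 embryo left out it was −2.34 to −1.91. In this class 0.0469% of all genes (5 genes) passed the adjusted threshold, and nothing is read from the members there. All 7 levels are below the 43.3 CPM of the sparse barcodes, and only that of control 16 lies within its interval; in those barcodes mutants 10, 11, 12 and 17 held 0, 3, 7 and 0 Atf3 UMIs and controls 14, 15 and 16 held 0, 7 and 0. Jun was at 729, 631, 723 and 624 CPM against 875, 906 and 879 CPM, without overlap (−0.39, SE 0.11). Fosb was at 195, 198, 210 and 117 CPM against 72.1, 119 and 160 CPM (0.62, SE 0.21), with mutant 17 again within the controls. The Fosb value was 0.78 (SE 0.19) without mutant 17, 0.37 (SE 0.19) without control 14 and 0.91 (SE 0.21) without control 16. Fos, at 406 ± 101 against 564 ± 137 CPM with overlap, had −0.48 (SE 0.18), and −0.31 (SE 0.14) without mutant 17. Of all genes in this class 5.17% had all mutants below all controls. Both layers held lower Atf3 in mutants, at 2.49 to 5.98 against 13.1 to 31.5 CPM in upper layers and 7.83 ± 3.05 against 25.4 ± 6.10 CPM in deep layers. Junb was without overlap in upper-layer neurons (53.9 ± 11.9 against 104 ± 7.46 CPM), while in deep-layer neurons the mutant mean was the higher (102 ± 25.3 against 81.3 ± 13.9 CPM). That difference between layers was not tested.

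**Figure D3:**
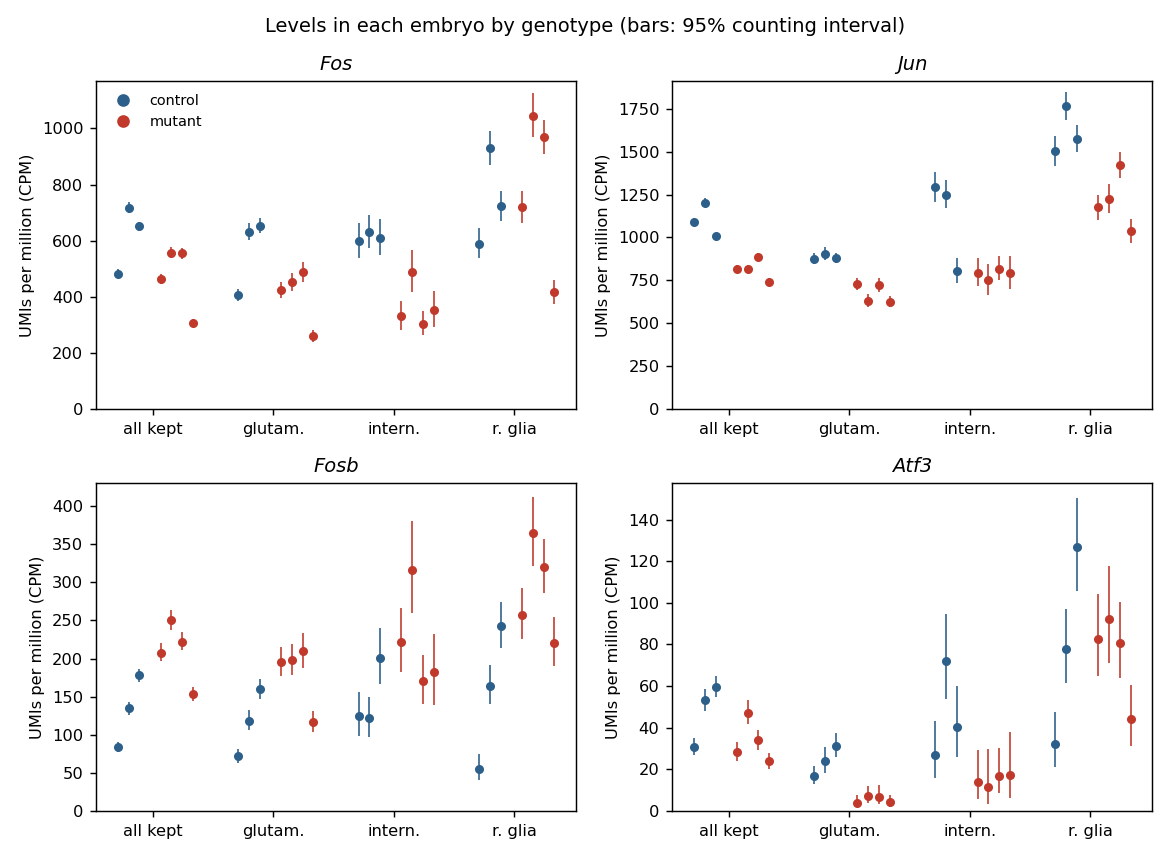
Level of Fos, Jun, Fosb and Atf3 in CPM in each embryo, in all kept cells, glutamatergic neurons, interneurons and radial glia; bars are 95% Poisson intervals, which cover counting error only. Jun in all kept cells and Atf3 in glutamatergic neurons show all 4 mutants (red) below all 3 controls (blue), and Fosb has 3 of 4 mutants above every control in all kept cells.

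Interneurons had the same directions as glutamatergic neurons for Fos, Fosb, Jun, Junb and Atf3. Fos was at 332, 487, 305 and 352 CPM in mutants, against 598, 630 and 610 CPM, without overlap (−0.73, SE 0.16, and −0.72 without mutant 17). Fosb was 0.58 (SE 0.21), and 0.65 without mutant 17. Atf3, from 4 to 11 UMIs in a mutant and 17 to 51 in a control, was at 15.0 ± 2.66 against 46.4 ± 23.2 CPM, without overlap (−1.59, SE 0.37). Junb was the other gene without overlap (53.1 ± 14.0 against 82.3 ± 15.0 CPM), so 3 members were wholly lower, beside 3.72% of all genes. Genotype values chose the members, so nothing is read from that count. Jun overlapped, since control 16, at 803 CPM, lay among the mutants, and its log2 fold change of −0.48 (SE 0.16) became −0.35 without control 14. With 8367 genes tested 0 passed the adjusted threshold in edgeR and 0 in DESeq2, while 574 (6.86%) had an unadjusted p under 0.05. Summed erythroid markers in interneurons were 2307 to 3913 CPM in mutants and 242 to 2224 CPM in controls, also without overlap, and their part in these values was not tested.

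In radial glia the mutant mean was again lower for Jun and higher for Fosb, while Fos and Atf3 differed little. Jun was at 1175, 1226, 1421 and 1037 CPM against 1504, 1765 and 1576 CPM, without overlap (−0.41, SE 0.15; all mutants below all controls for 3.43% of genes). Fosb was at 257, 364, 320 and 221 CPM against 55.7, 165 and 243 CPM (0.89, SE 0.28), and the value was 0.99 (SE 0.28) without mutant 17, 0.51 (SE 0.21) without control 14 and 1.37 (SE 0.28) without control 16. The means of Fos (788 ± 284 against 747 ± 171 CPM) and Atf3 (75.0 ± 21.1 against 78.9 ± 47.2 CPM) differed by less than the spread of either group. Fos had a log2 fold change of 0.07 (SE 0.23), which was 0.28 without mutant 17 and negative without mutant 11, mutant 12 or control 14. The sign of the Atf3 value turned without control 16 (0.40) and without mutant 17 (0.07). In this class 0.0304% of all genes (3 genes) passed the adjusted threshold.

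The genotype value of Atf3 was lower in glutamatergic neurons than in radial glia by a log2 difference of −2.06 (SE 0.31), from the interaction of genotype and class with the embryo as a block. That fit was added after the class values had been seen, and it rests on the genotype values that chose the family, so the differences are a description; 0.00906% of its 11036 genes (1 gene) passed the adjusted threshold. For Fos the difference was −0.50 (SE 0.13), for Junb −0.46 (SE 0.21), for Fosb −0.32 (SE 0.17), for Fosl2 −0.10 (SE 0.34), for Jund 0.35 (SE 0.13) and for Jun 0.03 (SE 0.11). Between glutamatergic neurons and interneurons the differences were −0.54 for Atf3 (SE 0.45), 0.29 for Fos (SE 0.16), 0.08 for Fosb (SE 0.19), 0.07 for Jun (SE 0.12), 0.24 for Junb (SE 0.24), 0.27 for Fosl2 (SE 0.46) and 0.34 for Jund (SE 0.11). There 0.00984% of all genes (1 gene) passed.

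**Figure D4:**
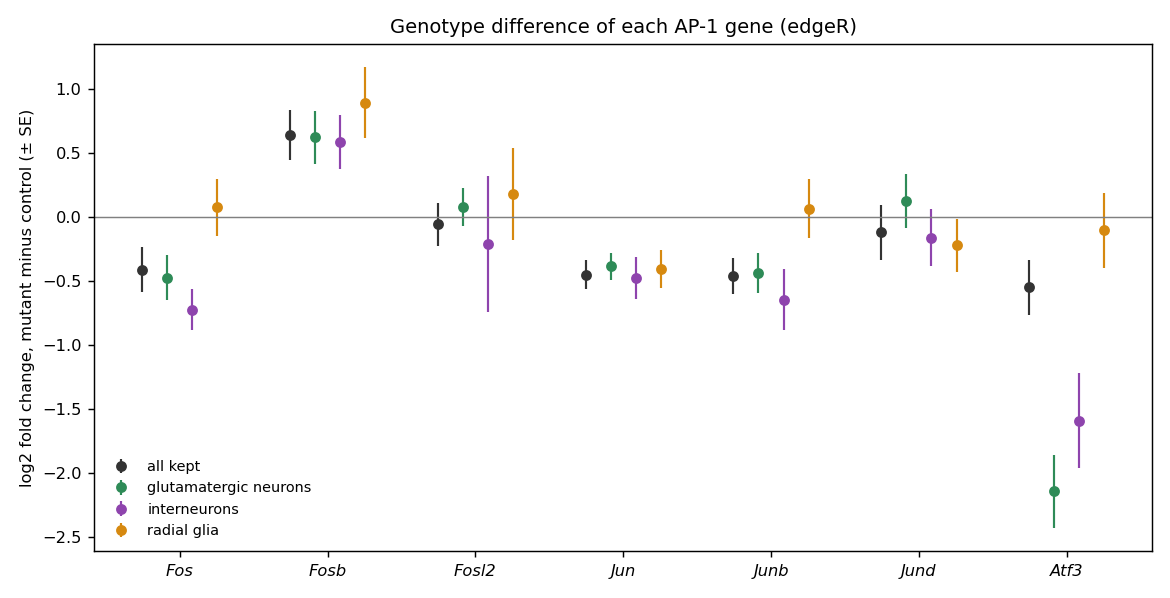
Log2 fold change, mutant minus control, of each AP-1 gene in 4 sets of cells, with standard errors as bars. Fosb lies above 0 and Jun below 0 in all 4 sets, while Atf3 ranges from −2.15 in glutamatergic neurons to −0.11 in radial glia.

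Because Fos and Fosb UMIs of an embryo come from the same cells and library, their ratio is free of depth and of the scaling between libraries, though not of free RNA. Fosb UMIs were 44.7%, 44.8%, 40.0% and 50.0% of Fos UMIs in mutants 10, 11, 12 and 17 and 17.3%, 18.8% and 27.3% in controls 14, 15 and 16. Mutant 17, low in both genes, lay with the other mutants on this scale. In glutamatergic neurons the ratio was 43.0% to 46.0% in mutants and 17.7% to 24.5% in controls, and in interneurons 51.6% to 66.7% against 19.3% to 33.0%. Upper-layer neurons (42.9% to 53.6% against 17.5% to 23.5%) and deep-layer neurons (42.7% to 49.1% against 15.1% to 26.6%) were also without overlap. In radial glia the groups met, at 33.0% to 53.1% against 9.43% to 33.6%, since control 16 was above mutant 12. The log2 ratio, mutants minus controls, was 1.11 in all kept cells, 1.14 in glutamatergic neurons, 1.33 in interneurons and 1.11 in radial glia. Over the leave-one-out sets it was 0.98 to 1.31, 1.05 to 1.29, 1.18 to 1.57 and 0.66 to 1.57. In the barcodes with fewer than 200 genes, mutants 10, 11, 12 and 17 held 8, 12, 15 and 7 Fosb UMIs beside 22, 29, 45 and 10 of Fos. Controls 14, 15 and 16 held 3, 4 and 2 beside 12, 47 and 6. The part of free RNA shared by all classes in these ratios was not tested. Fosb and Fos were chosen for their opposite genotype values, so the ratio restates that choice on another scale and is given as a description.

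**Figure D5:**
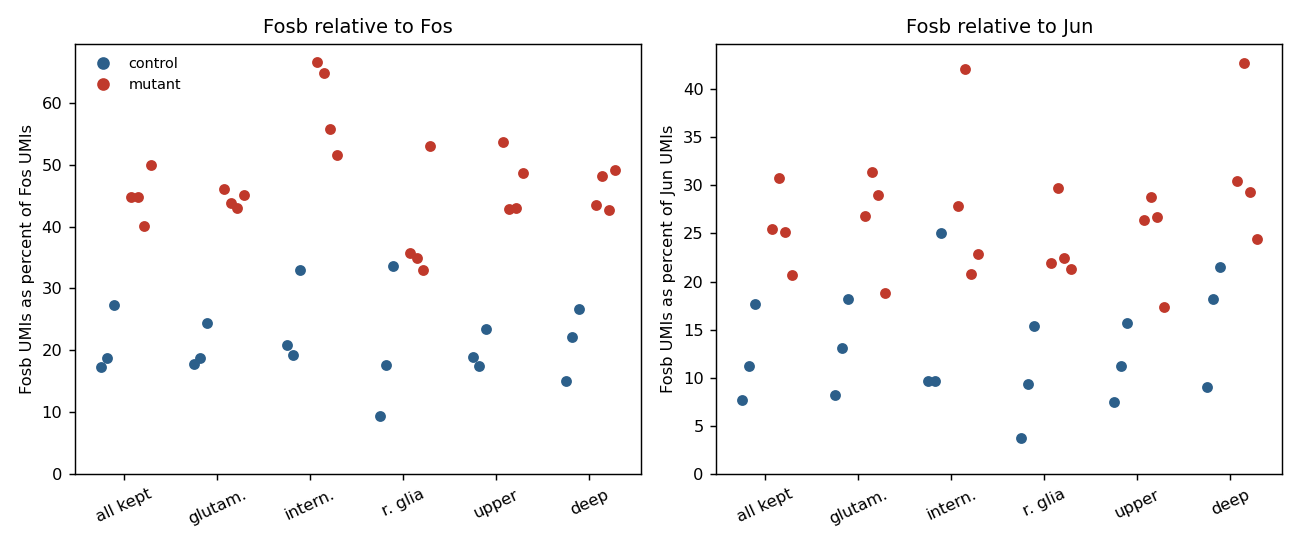
Fosb UMIs as a percent of Fos UMIs (left) and of Jun UMIs (right) in each embryo and set of cells; each point is 1 embryo. Against Fos, all mutants (red) lie above all controls (blue) in all kept cells, from 40.0% against at most 27.3%, and the groups overlap in radial glia.

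Other ratios within the family, also a description, separated the groups in part. Atf3 UMIs were 13.6% to 18.9% of Fosb UMIs in mutants and 33.4% to 39.5% in controls over all kept cells, at most 3.61% against at least 19.5% in glutamatergic neurons and at most 32.2% against at least 47.3% in radial glia, without overlap in each. Atf3 relative to Fos overlapped in all kept cells (6.08% to 8.46% against 6.34% to 9.12%) and in radial glia, and did not in glutamatergic neurons (0.90% to 1.63% against 3.77% to 4.78%). Fosb relative to Jun was 20.6% to 30.7% against 7.68% to 17.7% in all kept cells and overlapped in interneurons (20.8% to 42.1% against 9.66% to 25.1%). Fosb relative to Junb overlapped in all kept cells (217% to 465% against 90.1% to 230.1%), as it did in glutamatergic neurons, interneurons and radial glia. Fos relative to Jun (41.3% to 68.5% against 44.3% to 64.8%) overlapped there too, as did Jund relative to Jun.

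The summed level of genes known to be induced by dissociation was also lower in the mutant libraries. It was, over 30 dissociation-associated genes that are not AP-1 members, 6387, 6864, 6628 and 6865 CPM in mutants 10, 11, 12 and 17, against 7209, 7767 and 7881 CPM in controls 14, 15 and 16, without overlap. The same held in glutamatergic neurons (6132 to 6645 against 6695 to 7303 CPM) and interneurons (5208 to 5820 against 6591 to 6850 CPM), and the groups overlapped in radial glia (7439 to 8126 against 7424 to 9294 CPM). In all kept cells 27 of the 30 had a negative fold change, with a median of −0.29 against 0.00 for all genes (0 passed the adjusted threshold and 13 had an unadjusted p under 0.05, as did 1350 of all 12893 genes). The smallest p-values were those of Hspb1 (−1.34, SE 0.34), Dusp1 (−0.61, SE 0.17) and Hspa1b (−0.54, SE 0.15), with edgeR adjusted p of 0.322 each. In glutamatergic neurons the median was −0.29 over 27 genes, in interneurons −0.35 over 26 and in radial glia −0.08 over 27. The labels give the same digestion and array times for all embryos, and no handling order. The part of dissociation in the lower Fos, Jun and Atf3 of mutants was not tested, and Fosb went against the median of the list. For the 10 heat shock genes of the list alone, all mutants lay below all controls in all kept cells (4551 to 5296 against 5355 to 5700 CPM), and the groups overlapped in glutamatergic neurons. These 10 genes held most of the summed level in all kept cells. The lack of overlap in that sum therefore says little about the other genes of the list. The 27 negative fold changes of 30 count each gene once.

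Of the other lists, each read from the fit over all genes, none had a member past the adjusted threshold between genotypes. In all kept cells the median log2 fold change was 0.02 for 20 other basic leucine zipper genes, 0.03 for 26 upstream genes, −0.06 for 16 feedback genes, −0.04 for 14 other early-response transcription genes and −0.27 for 12 activity genes downstream of AP-1. Arc, the dendritic cytoskeletal early gene, had a positive value, as Fosb did (0.94, SE 0.25, edgeR adjusted p = 0.322), as were Nr4a3 (0.35, SE 0.13) and Maff (0.59, SE 0.22). In glutamatergic neurons Arc was at 1.38 (SE 0.35, adjusted p = 0.22), Nr4a3 at 0.56 (SE 0.14, adjusted p = 0.193) and Maff at 0.73 (SE 0.23, adjusted p = 0.303). Srf, which encodes the serum response factor that acts on the Fos promoter, was at 0.40 (SE 0.14, adjusted p = 0.383) in all kept cells and 0.67 (SE 0.21, adjusted p = 0.902) in radial glia. Inhba (−1.03, SE 0.22) and the stress gene Gadd45b (−0.75, SE 0.17), both counted as downstream of activity, had an adjusted p of 0.257 in all kept cells. None of these passed.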

How the data were processed

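Single-cell count tables of 7 embryos, deposited by the authors as whole-number UMI counts per gene and barcode, were used as given. Reads were aligned with STAR to mm10, per the submitters' processing notes; their versions, the annotation and strand use are not stated there. Barcodes passed with 500 or more genes and no more than 10% mitochondrial UMIs. A cell joined a class with at least 3 of its markers and a marker score, weighted by rarity, 1.5 times that of the next class. This gate was set after class sizes and leading genes had been seen. No doublet caller was run: 2657 cells with close scores and 8742 with too few markers stayed out. Counts were summed per embryo and class and tested with edgeR 4.0.16 (R 4.3.3; quasi-likelihood, TMM, Benjamini-Hochberg adjustment), with the embryo as a block where classes or layers were compared. CPM are a gene's UMIs scaled to a common total of the summed UMIs, with no TMM factor. The steps were tested on simulated data in which 200 genes changed by 1 on the log2 scale. The class, layer and genotype fits recovered 91% to 100% of them. The class-by-genotype fits recovered 33.5% (glutamatergic neurons against interneurons) and 52% (against radial glia), so they miss many such changes. The simulated counts had the same dispersion for every gene and no difference between embryos, so they are simpler than the data. Alternatives were DESeq2 1.42.0, no filter on low counts, 300 genes, a mitochondrial share of 5%, a stricter gate, no block and leaving out each embryo. Members, lists and tests were chosen with earlier results of these data known; other genes named are those with the smallest p of each list. Intervals cover counting error only. All embryos came from 1 litter, so p-values measure the spread between littermates; sex and batch are not in the labels.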

Additional observations from a re-analysis of the deposited data

Results flagged for a closer look

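Of 70 groups of 4 mutants, 3 held a value far from the others, measured as its gap to the nearest value over the whole range (above Dixon's 95% critical value); chance gives about 1 in 20 such groups. Fosb in glutamatergic neurons was 117 CPM in mutant 17, against 195 to 210 CPM in the other mutants. The log2 ratio of Fosb to Jun in radial glia was −1.75 in mutant 11, against −2.23 to −2.15. The log2 ratio of Atf3 to Fosb in glutamatergic neurons was −5.68 in mutant 10, which rests on 8 Atf3 UMIs, against −4.92 to −4.79. The genotype value of Atf3 differed between glutamatergic neurons and radial glia by −2.06 on the log2 scale in a fit of the difference itself. That fit was added with the class values known and rests on the genotype values that chose the family, so the value is a description.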

How the results depend on the processing

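No paired analysis of genotype was possible, because each embryo has a single genotype and the labels match no mutant to a control. In the class, layer and class-by-genotype fits the embryo was the block. Without the block the layer comparison called 1237 genes in place of 2037, and both class-by-genotype fits called 0 in place of 1. DESeq2 called 1151 genes between layers. At a mitochondrial share of at most 5% intermediate progenitors had 815 genes called in place of 1821, and Jun there turned to −0.28. The cause was not tested. Under the stricter gate intermediate progenitors could not be fitted.

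Genotype calls were few and moved with the setting. In all kept cells there were 3, with 165 without the filter on low counts, 21 by DESeq2, 5 at a mitochondrial share of 5%, and 3 to 26 with 1 embryo left out. In glutamatergic neurons there were 5, with 123, 23 and 8 under the same settings and 2 to 22 with 1 embryo left out. In interneurons there were 0, with 18 without the filter, 5 at a mitochondrial share of 5%, and 0 to 4 with 1 embryo left out. In radial glia there were 3, with 18 without the filter, 0 at 300 genes, 1 under the stricter gate, and 0 to 5 with 1 embryo left out. The difference between glutamatergic neurons and interneurons had 1, with 9 without the filter, 0 by DESeq2, 3 at 300 genes, 6 at a mitochondrial share of 5%, 0 under the stricter gate, and 0 to 5 with 1 embryo left out. That between glutamatergic neurons and radial glia had 1, with 10 without the filter, 0 at a mitochondrial share of 5%, and 0 to 5 with 1 embryo left out. Over all alternatives the Fosb value ranged from 0.40 to 0.91 in all kept cells and the Jun value from −0.52 to −0.37. Atf3 in mutant glutamatergic neurons rests on 8 to 13 UMIs an embryo, which limits its precision.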
